A study of Homo sapiens with 6 samples.

Results

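The genes described here are long intergenic non-coding (LINC) RNAs, chosen by their name, LINC followed only by digits, and by their counts, which summed to at least 60 over the 6 libraries of the deposited gene table. These were 134 of 2118 LINC rows and of 50868 rows in all. Of the remaining LINC rows, 1535 had no count and 449 had 1 to 59. The cells were KYSE-150, an established line from a human squamous carcinoma of the oesophagus, sequenced as 2 groups of 3 libraries. The siZNF514 group is labelled both as a ZNF514 knockout and as siZNF514, a name that usually stands for RNA interference. The nc group has no genotype label, is called wild type in the design text, and may or may not have had a control siRNA, which no source used here states. Nothing in the labels ties libraries to separate cultures, so the spread behind each p-value is that of these libraries and may be technical. Log2 fold changes are siZNF514 over nc and stand in parentheses with the standard error (SE). The words "rose" and "fell" mean an adjusted p under 0.05 by the quasi-likelihood test of edgeR, adjusted (Benjamini-Hochberg) across the 14250 genes tested. CPM stands for counts scaled to library size.

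A LINC RNA is a transcript without a long open reading frame from a gene that lies between coding genes. Such RNAs are usually present at lower levels and in fewer cell types than messenger RNAs, and many start close to, and point away from, a coding gene with which they share a promoter region. Some have been shown to act on a neighbouring gene, others bind proteins or microRNAs, and for most no role is established. In squamous carcinomas several are described as driven by lineage transcription factors or as raised in tumours.

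ZNF514 itself, a zinc finger protein gene, fell. It had 64, 82 and 63 counts in the siZNF514 libraries, against 239, 273 and 261 in the nc libraries, or 27.3% of the nc level in CPM (log2 fold change -1.87, SE 0.14). By exact two-sided permutation p was 0.1, and 3 against 3 libraries cannot give a smaller one. Library totals ran from 13262363 to 14318909 counts in siZNF514 and from 12175259 to 13696180 in nc. Of 9 squamous epithelial markers, 8 were above 1 CPM in every library and SOX2 was at or near 0. The 4 endothelial markers summed to 1.88 to 2.42 CPM in siZNF514 libraries and 3.11 to 3.31 CPM in nc libraries. In siZNF514 replicate 3 the 5 fibroblast markers summed to 13.7 CPM and the 5 leukocyte markers to 4.98 CPM, above every other library, whose sums reached at most 3.23 and 1.34 CPM. Their part in the results was not tested, and counts without that library are given beside the main ones.

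Most LINC RNAs that changed were lower in siZNF514 libraries. Of the 131 that passed the filter on low counts, 46 fell, 9 rose and 76 did not pass, where 25.1% of all genes tested fell and 25.5% rose. Of these, 32 decreases and 2 increases were 2-fold or more, where 7.21% and 2.08% of all genes tested fell or rose by that much. In bulk RNA, fewer cells making a transcript and less of it per cell cannot be told apart. The median log2 fold change was -0.44 over the LINC RNAs tested and -0.01 over all genes tested. Without siZNF514 replicate 3, 43 fell and 7 rose, 33 and 2 of them by at least 2-fold. Without nc replicate 2, 42 fell and 5 rose. Scaling by total counts alone gave 54 that fell and 6 that rose, with 4775 lower and 2493 higher among all genes in place of 3583 and 3629. For each of the 55 that rose or fell, the siZNF514 and nc libraries did not overlap in CPM, which passing the test nearly fixes. Over all genes tested, called or not, 60.3% did not overlap. Together the 134 took 0.0688% to 0.0727% of a siZNF514 library's counts, against 0.0996% to 0.102% of an nc library's. The number of LINC rows with any count was 314 to 324 in siZNF514 libraries and 392 to 404 in nc libraries. Over all rows it was also lower, 19384 to 20216 in siZNF514 libraries and 20842 to 21076 in nc libraries.

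The share that fell was near that of all genes in the sparsely counted class and above it in the other 2. Of 86 with sums from 60 to under 300 counts, 23 (26.7%) fell, against 26.5% of all genes tested at those sums, and 4 rose, against 6.51%. In that class 19 (22.1%) fell and 2 rose by at least 2-fold, against 20% and 3.19% of all genes. Of 27 with 300 to under 1000 counts, 14 (51.9%) fell, against 28.1%, and 2 rose, against 14.2%. By at least 2-fold 9 (33.3%) of them fell, against 9.1%, and 0 rose, against 2.39%. Of 18 with at least 1000 counts, 9 (50%) fell, against 23.9%, and 3 rose, against 33%. By at least 2-fold 4 (22.2%) of these fell, against 2.89%, and 0 rose, against 1.61%. The 1083 other long non-coding genes tested, which include antisense RNAs and host transcripts, passed in 39.6%, with 29% lower and 10.6% higher, or 19.7% and 4.62% at 2-fold or more. Among coding genes tested, 25.7% fell and 26.9% rose, or 5.96% and 1.83% at 2-fold or more. Coding genes had more counts, with a median sum of 3014 against 188 for the LINC RNAs tested. Within the middle 50% of the LINC RNA sums (106 to 490), 31.7% of 1232 coding genes fell, 19.1% at least 2-fold. Of the 65 LINC RNAs in that range, 29.2% fell, 23.1% at least 2-fold. In the same range 7.31% of coding genes and 6.15% of LINC RNAs rose. No test of these shares was run, since the LINC RNAs were chosen with earlier results of these data known.

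**Figure D1:**
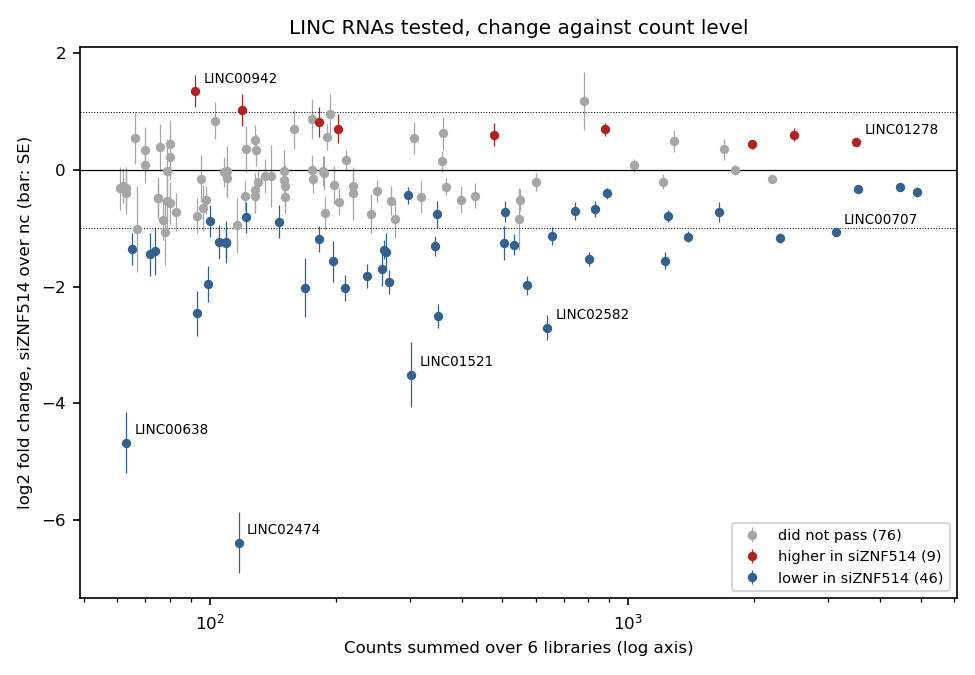
Log2 fold change of siZNF514 over nc (vertical axis, bars are SE) against counts summed over the 6 libraries (horizontal log axis) for the 131 LINC RNAs tested, coloured by whether they rose (9), fell (46) or did not pass (76). Dotted lines mark 2-fold changes, and the decreases of at least 2-fold reach from the sparsely counted LINC00638 to the well counted LINC00707.

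**Figure D2:**
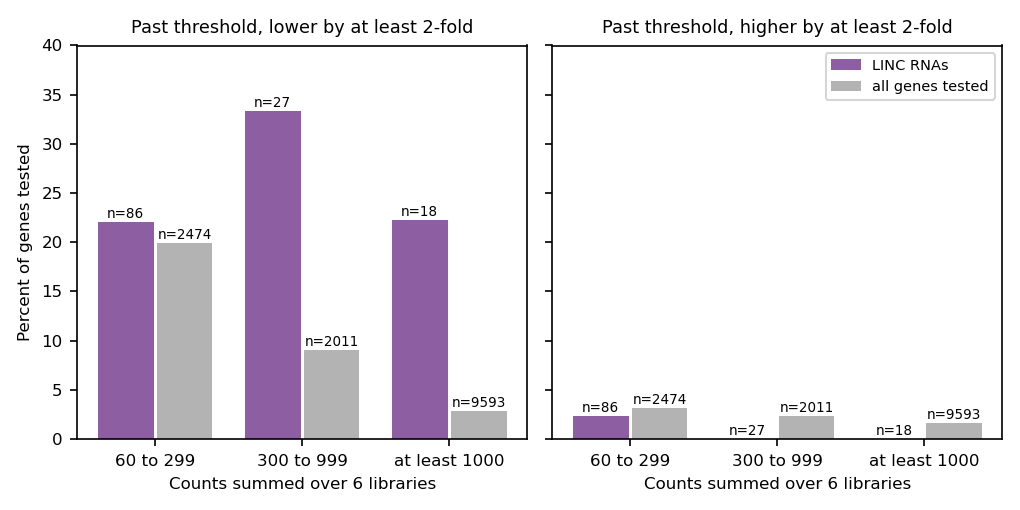
Percent of genes tested that fell (left) or rose (right) by at least 2-fold, for LINC RNAs and for all genes tested, in 3 classes of counts summed over 6 libraries, with the number of genes above each bar. The shares that fell were 22.1% and 20% in the lowest class, and 33.3% and 9.1% in the middle class.

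The decreases of greatest size were in LINC02474 and LINC00638, which siZNF514 libraries held at 0 or 1 count, and in LINC01521. LINC02474 (chromosome 1, 221966341 to 221984964, GRCh38) had 0, 1 and 0 counts in siZNF514 libraries and 34, 40 and 42 in nc libraries. LINC00638 (chromosome 14, 104821201 to 104823718) had 1, 0 and 1 counts in siZNF514 libraries and 22, 23 and 16 in nc libraries. LINC02474 and LINC00638 were therefore among the members only through their nc counts. For LINC00638 the 2 counts against 61 come to 3.31% of that in nc, and the exact 95% interval, for counting error only, is 0.392% to 12.5%. For LINC02474 the interval is 0.0219% to 4.95%, and its fitted log2 fold change of -6.39 became -8.27 without siZNF514 replicate 2, the library with the single count. LINC01521 (chromosome 22, 31346777 to 31348719) had 4, 1 and 19 counts in siZNF514 libraries and 92, 97 and 89 in nc libraries. Its siZNF514 libraries differed from each other more than its nc libraries did, and its log2 fold change of -3.51 (SE 0.56, adjusted p = 0.00185) became -5.10 without siZNF514 replicate 3.

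LINC02582, LINC01963 and LINC00622 followed. LINC02582 (chromosome 18, 73324941 to 73349878) had 25, 21 and 38 counts in siZNF514 libraries and 196, 209 and 150 in nc libraries (-2.71, SE 0.21, adjusted p = 8.26e-05). It had the largest count sum, 639, among decreases of at least 4-fold. LINC01963 (chromosome 2, 216217045 to 216220192) had 14, 19 and 19 counts in siZNF514 libraries and 108, 86 and 104 in nc libraries (-2.51, SE 0.21). LINC00622 (chromosome 1, 119597702 to 119599271) had 5, 5 and 4 counts in siZNF514 libraries and 21, 22 and 36 in nc libraries (-2.46, SE 0.38), beside ZNF697, which rose (0.50, SE 0.05). In each of these the highest siZNF514 library lay at less than 1 in 2 of the lowest nc library in CPM, as the plot of CPM by library shows.

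**Figure D3:**
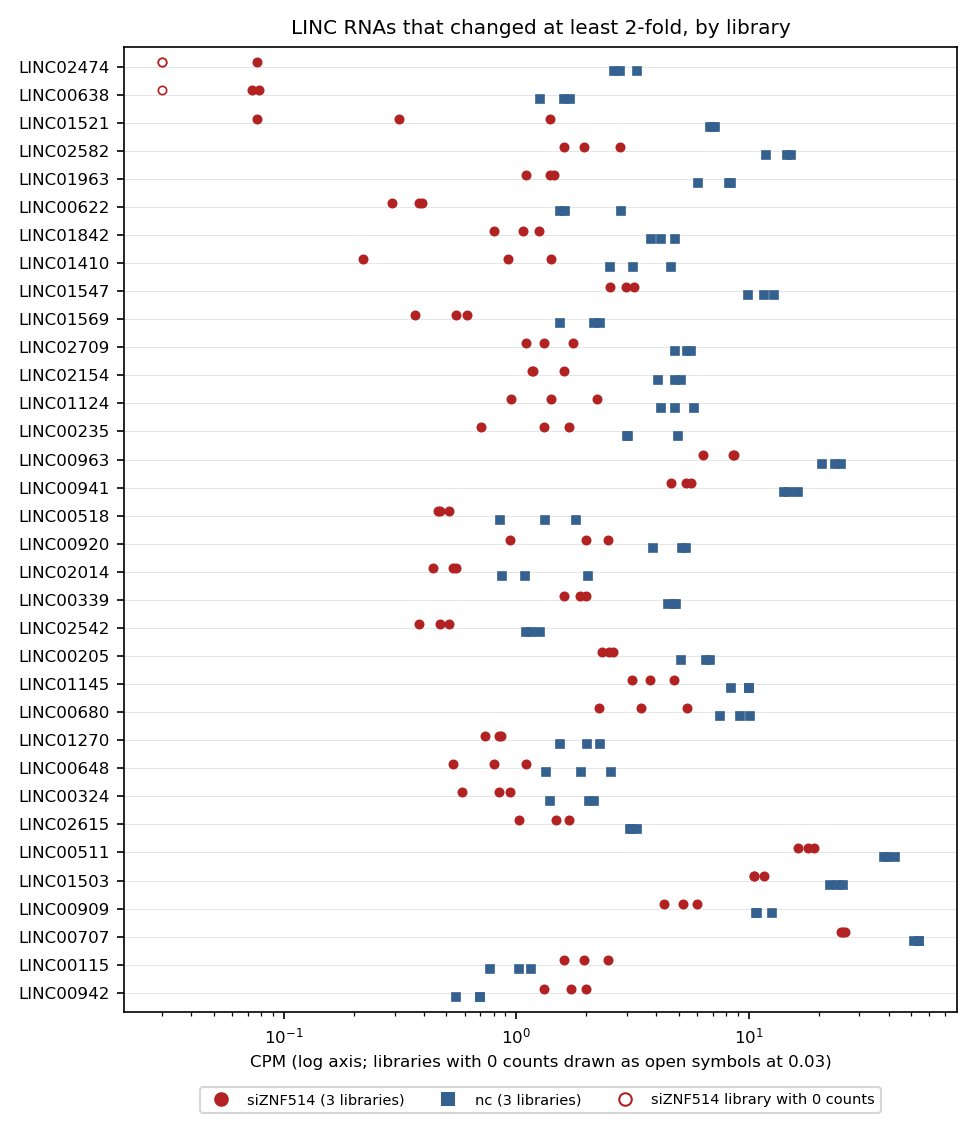
CPM in each library (horizontal log axis) of the 34 LINC RNAs that rose or fell by at least 2-fold, with circles for siZNF514 and squares for nc libraries. Libraries with 0 counts are open symbols at 0.03. LINC00115 and LINC00942 are the 2 with siZNF514 libraries to the right of all nc libraries.

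LINC RNAs described in carcinomas included several of the best counted decreases. Of a list of 18 chosen for that reason, with earlier results known, 12 were members, and the other 6 had at most 13 counts in all. Of the 12, 7 fell, 1 rose and 4 did not pass, and 6 of the decreases were at least 2-fold. The list is not complete, and LINC01234, described below as raised in carcinomas, was not on it and rose (0.44, SE 0.07). For comparison, 35.1% of all LINC RNAs tested and 25.1% of all genes tested fell, and of those with at least 1000 counts 50% of LINC RNAs and 23.9% of all genes fell. LINC00707, the second highest LINC RNA by FPKM (counts scaled to transcript length and library size), had 325, 327 and 354 counts in siZNF514 libraries and 698, 772 and 652 in nc libraries. It stood at 25.5 ± 0.438 CPM in siZNF514 and 53.3 ± 1.57 CPM in nc (SD, n = 3 each), and had the smallest adjusted p of the members (-1.06, SE 0.06, adjusted p = 2.13e-05). LINC00511, a long gene beside the transcription factor gene SOX9, had 209, 235 and 261 counts in siZNF514 libraries and 506, 608 and 486 in nc libraries (-1.17, SE 0.09). LINC01503, which is described in squamous carcinoma as driven by a super-enhancer under TP63, had 148, 137 and 144 counts in siZNF514 libraries and 290, 347 and 322 in nc libraries (-1.14, SE 0.09). The nearest coding genes of LINC00707, SFMBT2 (-0.49, SE 0.20) and PRKCQ (-0.39, SE 0.16), did not pass. Of those of LINC00511, SLC39A11, 5.48 kb away, did not pass (0.20, SE 0.08), and SOX9, 197 kb away, rose (0.31, SE 0.05). TP63 itself averaged 50.7 CPM in siZNF514 and 57.1 CPM in nc, and a link between TP63 and the level of LINC01503 was not tested.

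LINC00941, described as a repressor of keratinocyte differentiation, had 59, 70 and 77 counts in siZNF514 libraries and 183, 212 and 206 in nc libraries (-1.53, SE 0.12), and its neighbour CAPRIN2 did not pass (-0.16, SE 0.12). LINC00963, described in prostate cancer, had 109, 113 and 87 counts in siZNF514 libraries and 322, 296 and 298 in nc libraries (-1.55, SE 0.14). LINC02154 had 15, 21 and 16 counts in siZNF514 libraries and 66, 58 and 61 in nc libraries (-1.81, SE 0.21). In all 3 the siZNF514 level was 28.3% to 34.5% of the nc level. LINC00958, the member with the most counts, had 725, 672 and 719 in siZNF514 libraries and 852, 1100 and 835 in nc libraries and fell by less than 2-fold (-0.38, SE 0.08). LINC01106 rose, with 186, 173 and 182 counts in siZNF514 libraries and 114, 124 and 100 in nc libraries (0.69, SE 0.10). The 4 that did not pass were LINC00460 (-0.47, SE 0.29), LINC00857 (-0.20, SE 0.12), LINC00662 (-0.01, SE 0.09) and LINC00467 (0.15, SE 0.18). LINC00460, described as raised in oesophageal squamous carcinoma, had 14 to 29 counts in siZNF514 libraries and 23 to 35 in nc libraries, so a change of moderate size was not detectable at this depth.

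A set of 12 LINC RNAs started within 1000 bases of a coding gene that points the other way, an arrangement called divergent. Of these, 8 fell and 4 did not pass, and 5 of the decreases were at least 2-fold. Over all LINC RNAs tested 35.1% fell and 24.4% fell at least 2-fold, and over all genes tested 25.1% and 7.21%. Their 12 coding partners went different ways, and 2 rose, 5 fell and 5 did not pass, where 26.9% of coding genes tested rose and 25.7% fell. PATZ1 and SLC12A2 fell beside LINC RNAs that fell. The others that fell, ERCC6L2 (-0.42), ZNF41 (-0.82) and SETD1B (-0.19), lie beside LINC00476 (-0.26), LINC01560 (-0.15) and LINC01089 (0.70), which did not pass. LINC01547 (chromosome 21, 44932814 to 44939913, minus strand) starts 97 bases from FAM207A and had 38, 33 and 44 counts in siZNF514 libraries and 166, 142 and 148 in nc libraries (-1.98, SE 0.16). FAM207A had 603, 750 and 705 counts in siZNF514 libraries and 534, 602 and 611 in nc libraries, and did not pass (0.25, SE 0.09, adjusted p = 0.0629), nor did ITGB2 on the other side (-0.10, SE 0.12). LINC00235 (chromosome 16, 525155 to 527407, minus strand) starts 310 bases from the calpain gene CAPN15 and had 9, 22 and 18 counts in siZNF514 libraries and 39, 71 and 38 in nc libraries (-1.56, SE 0.35). CAPN15 rose, with 1337, 1417 and 1611 counts in siZNF514 libraries and 1216, 1287 and 1017 in nc libraries (0.32, SE 0.08), but did not pass with total counts alone or in the tests of FPKM. RAB11FIP3, 2.14 kb away on the other side, fell (-0.34, SE 0.11) but did not pass without siZNF514 replicate 2, without any 1 of the nc libraries, or with no filter on low counts. The 2 coding neighbours of LINC00235 thus went opposite ways.

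LINC01521 starts 545 bases from PATZ1, a zinc finger transcription factor gene, which fell by much less than the LINC RNA (-0.34, SE 0.05), with 814, 810 and 818 counts in siZNF514 libraries and 1005, 1156 and 956 in nc libraries. DRG1, on the other side, rose (0.34, SE 0.04). LINC01124 (chromosome 2, 170712451 to 170714567, minus strand) starts 784 bases from SP5, a gene activated by Wnt signalling, and had 18, 29 and 13 counts in siZNF514 libraries and 62, 83 and 53 in nc libraries (-1.69, SE 0.30). SP5 was sparse, at 16, 19 and 12 counts in siZNF514 libraries and 10, 14 and 15 in nc libraries (0.28, SE 0.30). LINC00909 starts 638 bases from the start of ZNF407 and overlaps it, and had 55, 78 and 71 counts in siZNF514 libraries and 162, 153 and 138 in nc libraries (-1.14, SE 0.15). ZNF407 did not pass (0.23, SE 0.16), and ZADH2, 597 kb away, rose (0.60, SE 0.08). Without knowledge of strand in the counting, reads from the overlap of such a pair cannot be told apart.

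The other 3 divergent LINC RNAs that fell did so by less than 2-fold. LINC01184 (-0.72, SE 0.17) fell together with its partner SLC12A2, a sodium, potassium and chloride cotransporter gene, which had 207, 205 and 210 counts in siZNF514 libraries and 466, 497 and 375 in nc libraries (-1.09). LINC00649 fell (-0.72, SE 0.18), while ATP5PO, a subunit gene of mitochondrial ATP synthase that it overlaps, rose (0.62). LINC01137 fell (-0.76, SE 0.24), and its partner ZC3H12A, which encodes an RNase of cytokine messages, did not pass (-0.09). The direction of the coding gene thus went with the LINC RNA in some pairs and against it in others.

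The promoter regions of the 4 large divergent decreases that could be read are shown because they lie at the paired starts of a LINC RNA and a coding gene, followed by those of LINC00941 and LINC00511 as carcinoma LINC RNAs with no coding gene starting near. RefSeq (GRCh38.p14) gave a promoter entry for 80 of the 134 and for 20 of the 34 large changes, 15 of the 20 with a start within 50 bases of the deposited start on the same strand. Each sequence runs 5′ to 3′ on the LINC RNA's strand, from 250 bases before its start to 50 after the start, and capitals mark matches on either strand to GGGCGG (the GC box), CCAAT and TATAAA, none of which overlap each other here.
LINC01547: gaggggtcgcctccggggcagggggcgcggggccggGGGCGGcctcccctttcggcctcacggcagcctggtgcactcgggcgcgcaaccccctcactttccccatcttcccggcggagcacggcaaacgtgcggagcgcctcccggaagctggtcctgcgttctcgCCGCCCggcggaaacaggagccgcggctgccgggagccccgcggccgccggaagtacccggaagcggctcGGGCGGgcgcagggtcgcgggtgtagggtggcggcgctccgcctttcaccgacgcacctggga
LINC01521: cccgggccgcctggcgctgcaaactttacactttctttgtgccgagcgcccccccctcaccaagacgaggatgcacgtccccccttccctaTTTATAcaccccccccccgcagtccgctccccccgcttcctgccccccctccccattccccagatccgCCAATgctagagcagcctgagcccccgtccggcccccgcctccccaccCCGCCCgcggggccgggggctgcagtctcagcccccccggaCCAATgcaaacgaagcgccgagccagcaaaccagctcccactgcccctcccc
LINC00235: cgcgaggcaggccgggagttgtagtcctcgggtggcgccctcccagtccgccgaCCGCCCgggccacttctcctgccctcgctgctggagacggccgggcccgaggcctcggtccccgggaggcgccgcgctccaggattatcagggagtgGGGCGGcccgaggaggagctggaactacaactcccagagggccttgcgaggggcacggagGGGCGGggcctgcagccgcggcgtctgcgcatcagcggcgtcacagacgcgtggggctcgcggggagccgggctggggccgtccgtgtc
LINC01124: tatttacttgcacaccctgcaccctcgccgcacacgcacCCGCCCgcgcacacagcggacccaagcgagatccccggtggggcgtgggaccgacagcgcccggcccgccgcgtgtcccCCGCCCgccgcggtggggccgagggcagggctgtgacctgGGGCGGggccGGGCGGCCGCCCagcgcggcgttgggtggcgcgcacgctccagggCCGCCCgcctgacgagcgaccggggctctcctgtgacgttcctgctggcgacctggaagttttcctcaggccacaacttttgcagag
LINC00941: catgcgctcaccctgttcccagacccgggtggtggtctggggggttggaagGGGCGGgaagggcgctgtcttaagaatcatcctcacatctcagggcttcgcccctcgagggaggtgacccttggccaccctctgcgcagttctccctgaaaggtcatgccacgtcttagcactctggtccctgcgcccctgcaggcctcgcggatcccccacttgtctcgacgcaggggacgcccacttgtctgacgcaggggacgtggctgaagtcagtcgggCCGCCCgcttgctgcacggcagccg
LINC00511: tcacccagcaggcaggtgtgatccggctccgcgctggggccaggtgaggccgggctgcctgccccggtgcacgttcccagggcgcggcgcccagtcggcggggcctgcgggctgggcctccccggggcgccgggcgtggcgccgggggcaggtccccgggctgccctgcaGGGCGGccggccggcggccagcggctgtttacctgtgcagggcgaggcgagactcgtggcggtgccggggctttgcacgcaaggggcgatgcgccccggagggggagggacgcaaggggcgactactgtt

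All 6 windows hold a GC box match, from 1 in LINC00511 and LINC01521 to 6 in LINC01124, where 45% of the 35116 promoters in the table hold at least 1. The LINC01521 window alone also holds CCAAT, with 2 matches, and TATAAA, with 1 on the opposite strand, which 34.6% and 11.5% of all promoters hold. Their GC content was 66% to 78%, against a median of 58.7% over all promoters, and they held 21 to 42 CG dinucleotides, against a median of 14. They lie at chr21:44939864-44940163, chr22:31346509-31346808, chr16:527358-527657, chr2:170714518-170714817, chr12:30795431-30795730 and chr17:72640423-72640722, in the order printed. A match is a description of these letters only.

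The remaining decreases of at least 2-fold lay beside genes of many kinds. LINC00339 (chromosome 1, 22024531 to 22031225), in a locus described in studies of bone density, had 24, 26 and 22 counts in siZNF514 libraries and 63, 68 and 57 in nc libraries (-1.36, SE 0.16). CDC42, a regulator of cell polarity whose gene starts 28.1 kb from the start of LINC00339, rose, with 3375, 3323 and 3305 counts in siZNF514 libraries and 2325, 2480 and 2271 in nc libraries (0.51, SE 0.05, adjusted p = 0.000135). For both genes the siZNF514 and nc libraries did not overlap in CPM, which passing the test nearly fixes. Over all genes tested, 60.3% did not overlap. A link between LINC00339 and CDC42 was not tested. LINC00205 (32, 34 and 32 counts in siZNF514 libraries and 66, 97 and 83 in nc libraries, -1.31, SE 0.17) lies 108 kb from the collagen XVIII gene COL18A1, which rose (0.83, SE 0.07), and 5.39 kb from POFUT2, an O-fucosyltransferase gene that did not pass (0.11). LINC00324 (12, 11 and 8 counts in siZNF514 libraries and 28, 20 and 26 in nc libraries, -1.24, SE 0.30) lies between CTC1, a telomere maintenance gene that fell (-0.68), and the mitotic kinase gene AURKB, which rose (0.82).

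LINC01842 (16, 14 and 11 counts in siZNF514 libraries and 54, 54 and 61 in nc libraries, -2.02, SE 0.22) also lies between coding genes that went opposite ways, the adhesion receptor genes ADGRE5, which rose (0.59), and ADGRL1, which fell (-0.47). So does LINC02709 (14, 23 and 18 counts in siZNF514 libraries and 70, 81 and 61 in nc libraries, -1.92, SE 0.21), with SBF2 higher (0.77) and SWAP70, a regulator of RAC signalling, lower (-0.29). On both sides of LINC01963 the coding genes rose, MARCHF4, a membrane ubiquitin ligase gene (1.01, SE 0.11), and XRCC5, a subunit gene of the Ku repair complex (0.22, SE 0.03). The same held for LINC00518 (6, 6 and 7 counts in siZNF514 libraries and 11, 19 and 23 in nc libraries, -1.45, SE 0.37), with the transcription factor gene TFAP2A at 0.46 and GCNT2 at 1.14. GCNT2 had 38, 28 and 46 counts in siZNF514 libraries and 11, 16 and 24 in nc libraries, and did not pass without siZNF514 replicate 1 or 3 or without nc replicate 1 or 2. Neither TFAP2A nor GCNT2 passed in the tests of FPKM. Beside LINC01270 (11, 11 and 10 counts in siZNF514 libraries and 26, 22 and 29 in nc libraries, -1.25, SE 0.25) both coding genes fell, the transcription factor gene CEBPB (-0.52) and the phosphatase gene PTPN1 (-0.17). LINC00638 lies 16.5 kb from ZBTB42, which fell as well, with 18, 20 and 21 counts in siZNF514 libraries and 46, 51 and 44 in nc libraries (-1.24, SE 0.17), while CEP170B on the other side did not pass (-0.14, SE 0.06). LINC02474 lies 224 kb from DUSP10, a phosphatase gene of stress kinases, which rose (0.27, SE 0.08) but did not pass without siZNF514 replicate 2 or 3, without nc replicate 1 or 3, with total counts alone, or in the tests of FPKM. HHIPL2, on its other side, was sparse and did not pass (-1.36, SE 0.58).

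Some of the others had neighbours that were not measured. The coding genes on either side of LINC02582 (NETO1 and FBXO15), LINC01410 (SPATA31A7 and ANKRD20A4P) and LINC02154 (FAM9C and ATXN3L) had too few counts to test. LINC01410 had 18, 12 and 3 counts in siZNF514 libraries and 41, 36 and 59 in nc libraries (-2.02, SE 0.50). LINC01569 had 7, 8 and 5 counts in siZNF514 libraries and 28, 22 and 29 in nc libraries (-1.95, SE 0.31), near TFAP4, which did not pass (0.17). LINC00920 had 12, 26 and 34 counts in siZNF514 libraries and 69, 74 and 49 in nc libraries (-1.40, SE 0.32), near the endothelial cadherin gene CDH5, which did not pass (-0.55). LINC02542 had 6, 5 and 7 counts in siZNF514 libraries and 15, 18 and 14 in nc libraries (-1.35, SE 0.28), and neither IBTK (0.17) nor TENT5A (0.08) passed beside it.

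The last of the large decreases were close to 2-fold or in families of similar sequence. LINC02615 had 19, 22 and 14 counts in siZNF514 libraries and 40, 47 and 40 in nc libraries (-1.18, SE 0.22). Its neighbour PGRMC2, 3.92 kb away, did not pass (-0.08), and JADE1, 290 kb away, rose (0.60). LINC00648 had 14, 7 and 11 counts in siZNF514 libraries and 33, 27 and 17 in nc libraries (-1.24, SE 0.36), 1776 kb from the ribosomal protein gene RPS29, which rose (0.71). LINC00648 did not pass without siZNF514 replicate 2 or 3 or without nc replicate 1 or 2 (adjusted p of 0.0557 to 0.0785). LINC02014 had 7, 7 and 6 counts in siZNF514 libraries and 14, 29 and 11 in nc libraries (-1.39, SE 0.42). It lies inside the extent of ALG1L2 on the other strand, which also fell (-1.09, SE 0.36). Reads of this overlap could be given to either gene if the counting ignored strand. LINC02014 did not pass without any 1 of the siZNF514 libraries or without nc replicate 2 (adjusted p of 0.0636 to 0.0832), and ALG1L2 did not pass without any 1 of the 6 libraries, with no filter on low counts, or in the DESeq2 Wald test. LINC01145 had 40, 49 and 65 counts in siZNF514 libraries and 129, 143 and 107 in nc libraries (-1.28, SE 0.18). LINC00680 had 29, 45 and 74 counts in siZNF514 libraries and 97, 131 and 128 in nc libraries (-1.26, SE 0.29), with the primase gene PRIM2 on one side (0.35, SE 0.10), which did not pass without siZNF514 replicate 1 or 2, without nc replicate 1 or 2, with total counts alone, or in the tests of FPKM. Both are typed as pseudogenes in GENCODE 29, so near-identical copies could share their reads. The neighbour FAM72D of LINC01145, which has near-identical copies too, rose (1.61, SE 0.07).

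Across the 32 large decreases, coding neighbours rose more often than they fell. The nearest coding gene on each side, plus any that overlapped, came to 64 genes, of which 46 were tested. Of these, 21 (45.7%) rose, 9 (19.6%) fell and 16 did not pass, where 26.9% of coding genes tested rose and 25.7% fell. The number that rose was 18 with total counts alone and 16 in the tests of FPKM. Fewer of all 14250 genes rose in those settings too, 2493 and 2515 to 2534, in place of 3629. Genes with at least 1000 counts, as most of these neighbours are, rose in 33% and fell in 23.9%. The 16 tested neighbours within 10 kb or overlapping were 2 that rose, 5 that fell and 9 that did not pass, and the 30 farther away were 19 that rose, 4 that fell and 7 that did not pass. Beside LINC RNAs that did not pass, 31 of 106 tested coding neighbours (29.2%) rose and 24 (22.6%) fell. Neighbours within a locus are not independent and these shares were not tested. Of the 32 large decreases, 19 had at least 1 neighbour that rose, 8 had at least 1 that fell, 5 had both, and 3 had none tested.

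**Figure D4:**
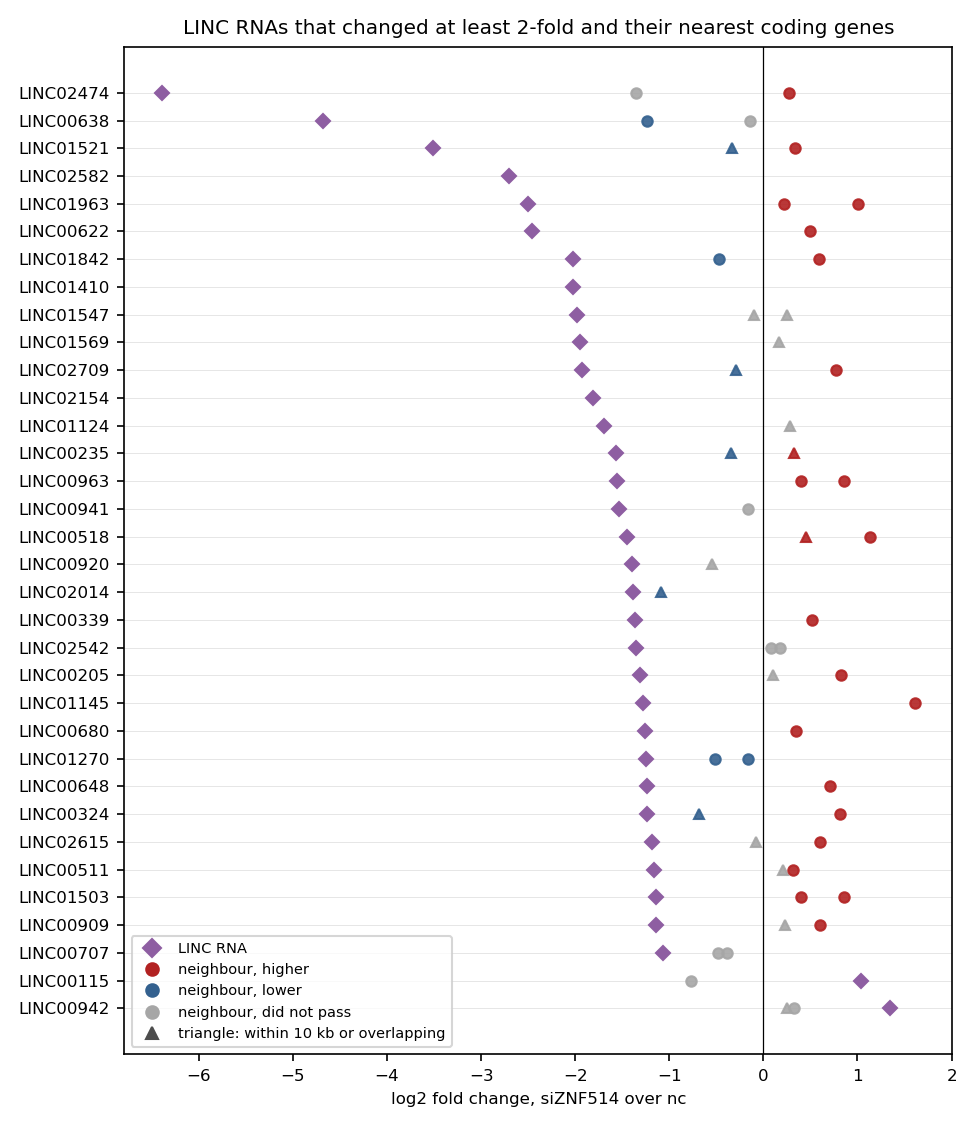
Log2 fold change of siZNF514 over nc (horizontal axis) of the 34 LINC RNAs that changed at least 2-fold (diamonds) and of their nearest coding genes that were tested, with triangles for those within 10 kb or overlapping and circles for those farther away. Most circles of the decreases lie to the right of 0 (19 of 30 genes rose, with IER5L and NTMT1 drawn beside 2 LINC RNAs each), while triangles lie on both sides (2 rose and 5 fell).

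LINC01503 and LINC00963 lie in the same interval of chromosome 9, between the coding genes IER5L and NTMT1, 124 kb apart and on the same strand. Both LINC RNAs fell and both flanking genes rose. IER5L, a relative of an immediate early gene, had 766, 706 and 783 counts in siZNF514 libraries and 405, 462 and 389 in nc libraries (0.86, SE 0.06). NTMT1, which encodes an enzyme that methylates protein amino termini, had 840, 861 and 1008 counts in siZNF514 libraries and 628, 748 and 689 in nc libraries (0.40, SE 0.07). Other LINC RNAs within 500 kb of each other were LINC01547 and LINC00205 on chromosome 21, which both fell, and LINC01123 and LINC01106 on chromosome 2, which both rose, and LINC01128 and LINC00115 on chromosome 1, which overlap and of which LINC01128 fell and LINC00115 rose. LINC00638 fell near LINC02298, which did not pass (-1.07, SE 0.56).

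**Figure D5:**
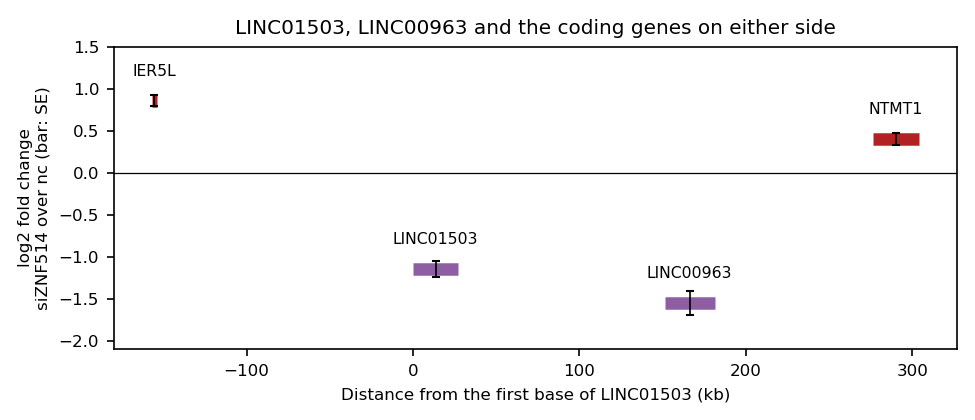
Log2 fold change of siZNF514 over nc (vertical axis, error bars are SE) of LINC01503, LINC00963 and the coding genes IER5L and NTMT1, each drawn as a bar along its own extent in kb from the first base of LINC01503. The 2 LINC RNAs lie below 0 (-1.14 and -1.55) and the 2 flanking genes above 0 (0.86 and 0.40).

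Increases of at least 2-fold were in 2 sparsely counted LINC RNAs. LINC00942 (chromosome 12, 1500525 to 1507318) had 22, 26 and 18 counts in siZNF514 libraries and 9, 10 and 7 in nc libraries (1.35, SE 0.28, adjusted p = 0.00578). It reached the count minimum mainly through its siZNF514 counts. The deposited table gives it the minus strand, while GENCODE 29 and RefSeq give the plus strand. Its neighbours WNT5B, a Wnt ligand gene (0.33, SE 0.25), and ERC1 (0.25, SE 0.11) did not pass. LINC00115 (chromosome 1, 826206 to 827522) had 25, 21 and 34 counts in siZNF514 libraries and 15, 11 and 13 in nc libraries (1.04, SE 0.27, adjusted p = 0.017). It no longer passed without nc replicate 2 (adjusted p = 0.0577) or without siZNF514 replicate 3 (adjusted p = 0.0561). Its coding neighbour SAMD11, 97.4 kb away, did not pass (-0.76, SE 0.31), and OR4F16, on the other side, had no counts. LINC00115 lies inside the extent of LINC01128 on the other strand, and LINC01128 fell, with 148, 159 and 146 counts in siZNF514 libraries and 244, 271 and 273 in nc libraries (-0.79, SE 0.10). Reads of the overlap could be given to either gene if the counting ignored strand.

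Changes under 2-fold included the best measured LINC RNAs, and 14 of them fell and 7 rose. LINC00294, the highest by FPKM, stood at 13.5 FPKM over the 6 libraries and had 485, 541 and 530 counts in siZNF514 libraries and 640, 726 and 609 in nc libraries (-0.33, SE 0.06). It overlaps TCP11L1, which did not pass (-0.14), and the polyadenylation factor gene CSTF3, which rose (0.21). LINC01508, at 7.34 FPKM, did not pass (0.08, SE 0.11). LINC02693, which GENCODE 29 types as protein-coding, had 631, 668 and 700 counts in siZNF514 libraries and 815, 861 and 786 in nc libraries (-0.29, SE 0.05). LINC01278 rose, with 646, 669 and 719 counts in siZNF514 libraries and 472, 510 and 492 in nc libraries (0.48, SE 0.06, adjusted p = 0.000552), the smallest adjusted p among the increases. LINC01234, described as raised in gastric and other carcinomas, had 381, 376 and 377 counts in siZNF514 libraries and 277, 308 and 260 in nc libraries (0.44, SE 0.07). LINC01123 had 406, 503 and 588 counts in siZNF514 libraries and 309, 351 and 328 in nc libraries (0.61, SE 0.12). The remaining increases were LINC01003 (0.60), LINC01012 (0.71), which lies in the histone gene region of chromosome 6, and LINC01602 (0.82). LINC00240, in the same chromosome 6 region, fell (-0.81, SE 0.27), as did LINC01446 (-0.89), LINC01098 (-0.88), LINC00960 (-0.71), LINC00265 (-0.67), LINC01836 (-0.44) and LINC02882 (-0.40). Of these 21, LINC01446, LINC01098, LINC00240, LINC01137, LINC01836, LINC01003, LINC01012 and LINC01602 lay close to the threshold, with adjusted p of 0.0311 to 0.0476.

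The 76 that did not pass had log2 fold changes from -1.07 to 1.18, 53 of them negative and 23 positive, with SEs of 0.07 to 0.74 and a median of 0.30. Several were uneven between libraries of 1 group. LINC01232 had 105, 216 and 224 counts in siZNF514 libraries and 117, 29 and 91 in nc libraries (1.18, SE 0.50). LINC02577 had 21, 105 and 68 counts in siZNF514 libraries and 62, 166 and 125 in nc libraries (-0.84, SE 0.53). In these a 2-fold change was within the spread between libraries. LINC01578, also called CHASERR and known in mouse and human cells to restrain its neighbour CHD2 in cis, had 325, 339 and 372 counts in siZNF514 libraries and 387, 416 and 360 in nc libraries (-0.15, SE 0.07). CHD2, a chromatin remodeller gene, had 1571, 884 and 839 counts in siZNF514 libraries and 698, 1518 and 689 in nc libraries and did not pass (0.23). LINC01089 did not pass either (0.70, SE 0.33).

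LINC01615, LINC02026 and LINC01518 did not pass the filter on low counts and were not tested. They had 6 to 9, 9 to 15 and 6 to 8 counts in siZNF514 libraries, against 7 to 21, 7 to 10 and 8 to 18 in nc libraries. Just inside the minimum of 60 lay LINC02026 with 60 counts and LINC01518 and LINC02742 with 61 each, and just outside lay LINC02273 and LINC02377 with 59 and LINC01409 with 58. Under 30 counts stood in the siZNF514 group for 17 members and in the nc group for 3, so these had more of their counts in the other group. They include large decreases such as LINC01521 (24 counts in siZNF514 and 278 in nc), LINC00622 (14 and 79) and LINC01569 (20 and 79). The large increase LINC00942 (66 and 26) is among them as well. They also include near-even ones such as LINC01160 (28 and 34). By annotation, 102 of the 134 are typed lincRNA in GENCODE 29, 6 are typed as pseudogenes and 18 overlap a coding gene. The median of their mean FPKM was 0.96, and 64 reached 1 FPKM.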

How the data were processed

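RNA sequencing of 3 siZNF514 and 3 nc libraries was deposited as 1 table of 50868 genes. Per the labels, RNA was extracted with TRIzol and libraries were made with a VAHTS V6 kit. Build hg38 and the tools edgeR, StringTie 1.3.3b and HISAT2 2.0.4 are listed, without roles, per the submitters' processing notes, and no source used here says whether strand was used. The deposited count columns hold whole numbers, and the deposited FPKM columns were made by the authors. Counts were filtered with filterByExpr (minimum count 10, minimum total 15), which kept 14250 genes, scaled by TMM and tested with the edgeR 4.0.16 quasi-likelihood test (R 4.3.3) with Benjamini-Hochberg adjustment over all of them. Each SE was derived from the F statistic as the absolute log2 fold change over its root. The step was tested on simulated data with changes placed only in a small part of the better counted genes. That check therefore does not cover the sparsely counted LINC RNAs. CPM was taken over library size times the TMM factor. Gene types came from GENCODE 29 for 50111 rows and RefSeq for 115, and 642 had none. Deposited loci of 117 of the 134 members equal those of GENCODE 29 (GRCh38). Members, lists and the named-gene rule (all 2-fold changes with their nearest coding genes, the 5 highest by FPKM, the 5 smallest p-values each way, a list of carcinoma LINC RNAs, those not tested and those at the edge of the count minimum) were chosen with earlier results of these data known, and other genes named were chosen after their values were seen. Alternatives were a replicate block, leaving out single libraries, the Wald test of DESeq2 1.42.0 and its size factors within edgeR, totals in place of TMM, a filter at a mean of 50 counts or none, and limma-trend 3.58.1 on log2 FPKM with pseudocounts 0.1, 1 and 0.01. At these depths 1 count is 0.0701 to 0.0789 CPM. Without molecular identifiers, intervals describe counting error alone.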

Additional observations from a re-analysis of the deposited data

How the results depend on the processing

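No named LINC RNA that rose or fell changed sign under any alternative that gave it a value. LINC01508 and LINC00662, which did not pass, lay on both sides of 0, from -0.05 to 0.16 and from -0.13 to 0.05. Of the changes of at least 2-fold, 31 of the 34 kept their side of the threshold in every alternative that gave them a value. The filter at a mean of 50 counts gave none for sparsely counted ones such as LINC02474 and LINC00942. The exceptions were LINC00648, LINC02014 and LINC00115, each lost only when 1 library was left out. Leaving out 1 library gave 41 to 43 LINC RNAs that fell, 30 to 33 of them at least 2-fold, and 5 to 9 that rose, 1 to 3 of them at least 2-fold, with the lowest counts of increases without nc replicate 2. With a mean count of at least 50, which left 45 LINC RNAs to test, 25 fell and 5 rose, 13 and 0 of them at least 2-fold. In limma-trend, increases of at least 2-fold numbered 0 with pseudocounts of 0.1 and 1 and 1 with 0.01, and decreases of at least 2-fold numbered 11 with a pseudocount of 1, which shrinks the change of low genes. With total counts alone, 54 fell and 6 rose, 1 at least 2-fold, and the median of all genes was -0.14 in place of -0.01. With the replicate number as a block, 45 fell and 10 rose and 20 neighbours of the large decreases rose, in place of 46, 9 and 21, and the neighbours ALG1L2, PRIM2 and RAB11FIP3 did not pass. Same-numbered libraries had correlations of -0.0358 to 0.0413 of their deviations from the group means, which gives no sign of pairing by number. Such values cannot show that same-numbered libraries were handled separately. ZNF514 fell in every alternative. The 76 that did not pass had a median SE of 0.30, so smaller changes among them were not detectable at this depth.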
